A study of Mus musculus with 2 samples.

Results

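The metallothionein and zinc transport genes Mt1, Mt2, Mtf1, Slc30a1 and Slc39a14 were followed in lung endothelial cells (ECs) and melanoma cells. These 5 genes, taken by symbol, are 5 of the 32285 gene IDs in both count matrices. They were chosen on values of these data, namely the higher Mt1 and Mt2 levels in general capillary ECs after melanoma injection. That difference is therefore given as a description of 2 libraries and not as a test.

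Single-cell RNA sequencing had been run on cells of wild-type C57BL/6 mice, per the labels, with 1 library per treatment. Control mice received PBS, and the B16-F10 group received 400000 B16-F10 cells in 100 µl per mouse through the tail vein. B16-F10 cells derive from a melanoma of mouse skin and carried a green tracker dye. The lungs of both groups were taken at 6 h, and Pecam1-positive, Ptprc-negative cells were sorted, with tracker-positive melanoma cells added from injected lungs alone. The labels give 2 mice per treatment, while the study's methods give another number. The methods describe adult males, with the cells of several mice pooled into 1 library. An intravenous bolus places tumor cells directly in lung vessels, and no primary tumor was present in either group.

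With 1 library per group there was no replicate error and no test between conditions. Levels are CPM, that is UMIs of a gene per 1000000 UMIs summed over a cell class. A UMI marks 1 captured RNA molecule. Ratios are log2 of the B16-F10 CPM over the control CPM. The 95% intervals, exact Poisson for levels, exact conditional binomial for ratios and Clopper-Pearson for shares of cells, cover counting error only and neither mice nor the spread between cells. A gene was called higher or lower when its ratio was at least 1 in size and its whole interval lay on that side of 0.

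Metallothioneins are small cysteine-rich proteins that bind zinc, copper and cadmium and buffer free zinc. MTF1, encoded by Mtf1, is a zinc-sensing transcription factor that enters the nucleus when free zinc is high and switches on Mt1, Mt2 and Slc30a1 through metal response elements. Slc30a1 encodes ZnT1, the plasma membrane zinc exporter. Slc39a14 encodes ZIP14, which imports zinc, iron and manganese and is known as an importer induced in inflammation. Metallothionein genes are also induced by glucocorticoids and by interleukin 6 through STAT3.

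Mt1 lies on chromosome 8 at 94179082-94180327 and Mt2 at 94172664-94173568 of GRCm38, the build also called mm10, both on the plus strand and separated by 5513 bases. Mt3 and Mt4 complete the cluster, which spans 43131 bases. Mtf1 is at chr4:124802104-124849800 (+), Slc30a1 at chr1:191906767-191913247 (+) and Slc39a14 at chr14:70303469-70351425 (-). All are annotated as protein coding. The transcripts of Mt1 and Mt2 shared no stretch of 31 bases in the GENCODE annotation.

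The 250 bases before the RefSeq start (GRCm38.p6) are shown for the pair of metallothioneins that differed most between libraries and for Slc30a1, the other classical target of MTF1. Capitals mark matches to the core of the metal response element, TGCACNC or TGCGCNC, on either strand. The windows are chr8:94178839-94179088 (+) for Mt1, chr8:94172368-94172617 (+) for Mt2 and chr1:191906531-191906780 (+) for Slc30a1.
Mt1: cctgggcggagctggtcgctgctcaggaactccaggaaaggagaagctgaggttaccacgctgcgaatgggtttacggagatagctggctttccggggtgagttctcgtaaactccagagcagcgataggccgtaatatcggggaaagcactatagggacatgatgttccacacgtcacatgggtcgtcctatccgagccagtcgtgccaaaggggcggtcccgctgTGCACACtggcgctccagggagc
Mt2: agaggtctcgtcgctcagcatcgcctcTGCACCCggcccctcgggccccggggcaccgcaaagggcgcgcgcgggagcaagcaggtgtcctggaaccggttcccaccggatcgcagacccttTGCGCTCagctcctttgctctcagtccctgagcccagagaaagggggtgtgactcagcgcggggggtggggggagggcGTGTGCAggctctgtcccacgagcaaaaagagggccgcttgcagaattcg
Slc30a1: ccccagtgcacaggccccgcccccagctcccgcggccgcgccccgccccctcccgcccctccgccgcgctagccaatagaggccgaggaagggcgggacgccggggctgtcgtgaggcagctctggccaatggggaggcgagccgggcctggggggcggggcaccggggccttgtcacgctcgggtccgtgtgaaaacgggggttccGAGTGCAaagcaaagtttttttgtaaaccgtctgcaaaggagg
Mt2 held 3 matches, the nearest beginning 50 bases before the start, while Mt1 held 1 at 23 bases and Slc30a1 held 1 at 43 bases. The same window of Mtf1 held none, but it lies at 124802299-124802548, inside the annotated gene, which begins at 124802104. Bases past the start used for each gene were not scanned, so sites beyond it or near other starts are not counted. Of 32851 mouse promoter windows of this length, 21.4% held at least 1 match and 1.26% held at least 3. The STAT site TTCNNNGAA was in none of the windows of Mt1, Mt2, Slc30a1 and Mtf1, against 7.02% of all windows, and the antioxidant core TGACNNNGC was found once each in Mt2 and Slc30a1, against 10.2%. A match is a run of letters and not a shown binding site. Slc39a14 was not analysed here for promoter sequence.

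In all, 85794655 UMIs came from control lungs and 104978816 from injected lungs. After filtering, 7830 and 7767 cells remained, with medians of 7510 and 8557 UMIs, and 18 cell barcodes occurred in both libraries. The ECs numbered 7106 and 6360, and each of the 8 endothelial markers had a UMI in 80.6% to 99.5% of them. Cells were classed by markers as general capillary (gCap-like, 4944 control and 4572 B16-F10 cells), aerocyte (aCap-like, 1449 and 976), arterial-like (189 and 142), venous-like (284 and 279) and lymphatic-like (58 and 51). The members and the published markers of reactive capillary ECs (rCap) were left out of the clustering genes.

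In gCap-like ECs, the most common capillary cells of the lung, Mt1 had 72 UMIs or 1.94 CPM (1.52 to 2.44) in the control library and 1883 UMIs or 46.9 CPM (44.8 to 49.1) in the B16-F10 library. The log2 ratio was 4.60 (4.26 to 4.96), which is 24.2-fold. Mt2 had 8 UMIs or 0.215 CPM (0.0929 to 0.424) against 508 UMIs or 12.7 CPM (11.6 to 13.8), a log2 ratio of 5.88 (4.89 to 7.10). The intervals of the levels did not overlap for either gene. By ratio, Mt2 ranked 6 and Mt1 ranked 14 from the highest among 13285 genes with at least 50 UMIs. Neither Mt3, a metallothionein known from brain, nor Mt4, one of stratified epithelia, had a UMI in gCap-like ECs of either library. Of the members, 2 of 5 were called higher, against 3.03% of all genes, and 0 of 5 lower, against 2.72%; the choice of members used this contrast, so nothing is read from that count.

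The other members differed little by comparison. Mtf1 stood at 26.4 CPM (24.8 to 28.1) in control and 29.8 (28.1 to 31.5) in B16-F10 gCap-like ECs, a log2 ratio of 0.17 (0.05 to 0.29). Slc39a14 stood at 15.8 CPM (14.6 to 17.1) and 18.0 (16.8 to 19.4), a log2 ratio of 0.19 (0.03 to 0.35). Slc30a1 was lower, at 90.4 CPM (87.4 to 93.5) against 61.9 (59.5 to 64.4), a log2 ratio of -0.55 (-0.62 to -0.47). The exporter thus differed in the opposite direction to the metallothioneins. Both are known MTF1 targets, and the part of MTF1 was not tested. An interval beyond 0 was common at this depth: 28.7% of all genes had one above 0 and 34.7% one below, so the intervals of Mtf1, Slc39a14 and Slc30a1 do not set them apart. Markers of other cell types in these cells were, over 8 genes each, 26.7 and 54.8 CPM for melanoma, 30.8 and 30.8 for platelets, 16.7 and 31.4 for macrophages and monocytes, 2.91 and 8.75 for neutrophils, 29.1 and 47.0 for mural cells, 8.42 and 14.7 for fibroblasts and 201 and 171 for epithelium in the control and B16-F10 library. Their part in the result was not tested.

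**Figure D1:**
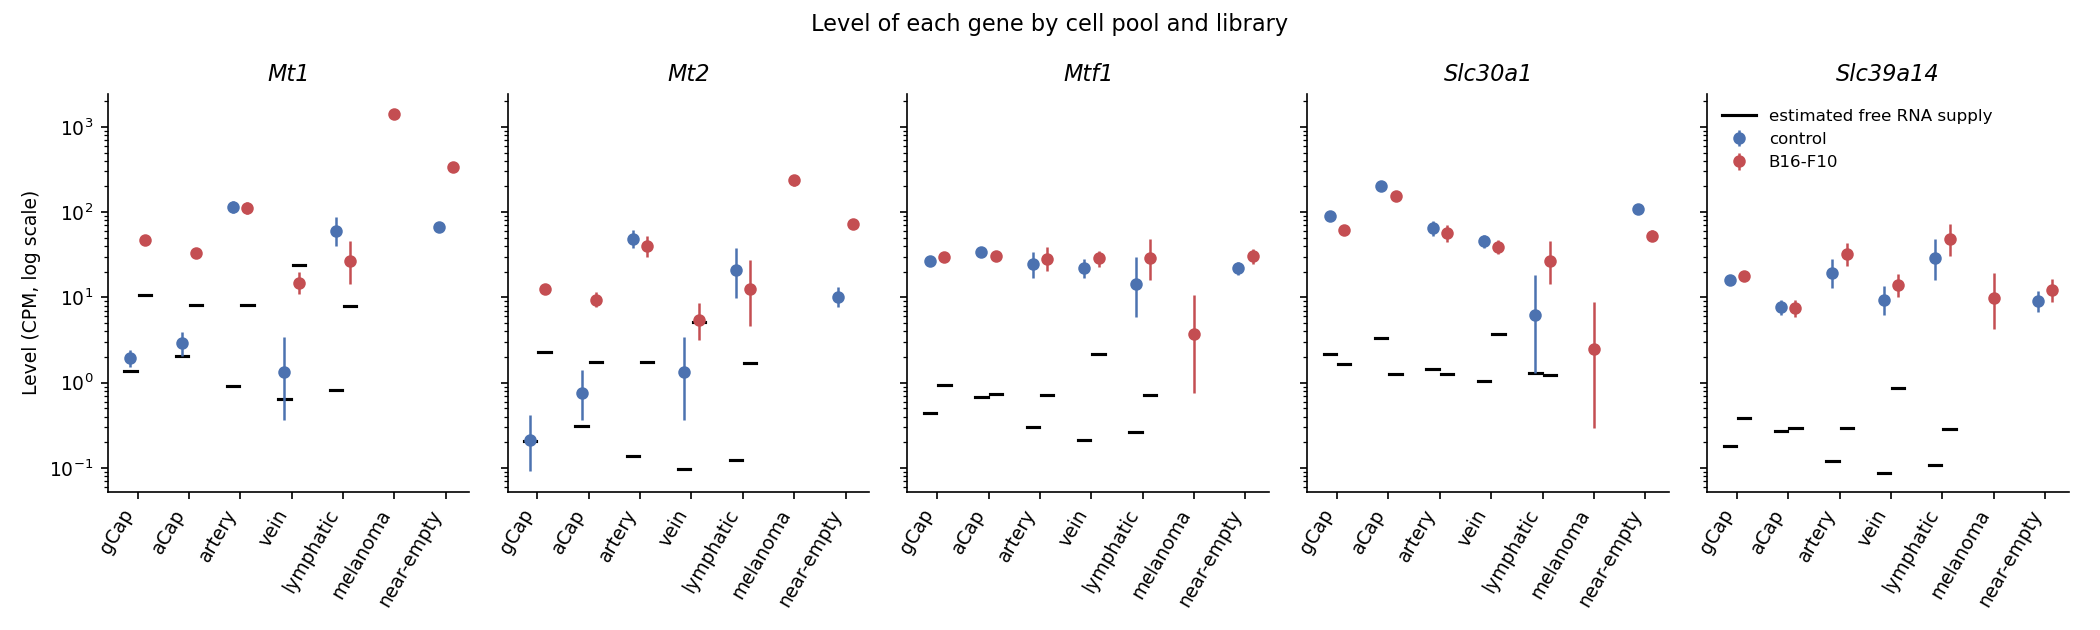
Level of each gene (CPM, log scale) in the control (blue) and B16-F10 (red) library for 5 EC classes, melanoma cells and near-empty barcodes, with exact 95% Poisson intervals; black bars give the level that free RNA would supply. Mt1 and Mt2 of B16-F10 gCap-like and aCap-like ECs stand above their bars, the control levels of Mt1 and Mt2 in gCap-like ECs lie near them (1.94 against 1.36 CPM for Mt1), and Slc30a1 is lower beyond counting error in gCap-like and aCap-like ECs of the B16-F10 library.

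In aCap-like ECs, the large thin capillary cells of gas exchange, Mt1 was at 2.90 CPM (2.05 to 3.98) in control and 33.2 (29.9 to 36.8) in the B16-F10 library, a log2 ratio of 3.52 (3.03 to 4.04). Mt2 was at 0.763 CPM (0.366 to 1.40) and 9.44 (7.71 to 11.4), a log2 ratio of 3.63 (2.69 to 4.73). Slc30a1 had its highest level of any vessel type here, at 202 CPM (194 to 210) in control and 155 (147 to 162) in the B16-F10 library, with a log2 ratio of -0.38 (-0.47 to -0.30). The intervals of the ratios of Mtf1 (-0.14, -0.35 to 0.06) and Slc39a14 (-0.05, -0.49 to 0.38) held 0. The mix of clusters in this class differed between libraries. A cluster with a median of 4908 UMIs gave 535 of 1449 control and 66 of 976 B16-F10 cells, and its part in these ratios was not tested. Of the members 2 of 5 were called higher, against 2.19% of all genes, and 0 of 5 lower, against 2.06%. Intervals lay above 0 for 2 of 5 members, against 27.9% of genes, and below 0 for 1 of 5, against 27.5%.

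Arterial-like ECs differed from the capillaries in that Mt1 and Mt2 were already high in the control library. Mt1 stood at 115 CPM (98.1 to 134) and 111 (93.9 to 131), and Mt2 at 48.8 (38.0 to 61.6) and 39.8 (29.8 to 52.1). The log2 ratios, -0.05 (-0.38 to 0.28) and -0.29 (-0.84 to 0.24), spanned 0. These levels rested on very few cells, since 1 cell held 104 of 235 Mt1 and Mt2 UMIs in the control library and 1 cell held 148 of 201 in the B16-F10 library. Without that cell in each library, Mt1 was at 71.3 CPM in control and 35.6 in B16-F10 arterial-like ECs, a log2 ratio of -1.0 (-1.53 to -0.49), and Mt2 at 21.2 and 4.55 CPM, a log2 ratio of -2.22 (-3.77 to -0.93). The 2 richest cells together held 67.2% of the Mt1 and Mt2 UMIs in control and 81.6% in B16-F10 arterial-like ECs. The ratios without 1 cell thus still rest on few cells. Slc39a14 was at 19.5 CPM (13.0 to 28.2) and 32.3 (23.4 to 43.5), a log2 ratio of 0.73 (0.01 to 1.47), and 15.9% of genes had an interval above 0 in these cells. Without the cell richest in metallothionein UMIs its ratio was 0.65 (-0.08 to 1.40), an interval that held 0.

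In venous-like ECs, Mt1 went from 4 UMIs, or 1.33 CPM (0.363 to 3.41), to 47 UMIs, or 14.9 CPM (11.0 to 19.9), a log2 ratio of 3.49 (2.03 to 5.42). Mt1 was called higher, as were 1.65% of genes, and Mt2, with 4 and 17 UMIs, was under the minimum of 50 UMIs. The level that free RNA would supply to Mt1 in these B16-F10 cells was 24.1 CPM by all marker genes, above the level seen, and 10.1 CPM by pigment genes. Subtracting the former left no Mt1 and turned the log2 ratio of Mt2 to -2.36. Lymphatic-like ECs held too few UMIs of any member for a call. Of Mt1, lymphatic-like ECs held 29 UMIs without and 13 with melanoma cells (60.3 and 27.0 CPM), a log2 ratio of -1.16 (-2.23 to -0.17), which was -0.94 (-2.14 to 0.18) without the richest cell of each library. Slc30a1 had 3 and 13 UMIs there, a log2 ratio of 2.11 (0.25 to 4.57).

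**Figure D2:**
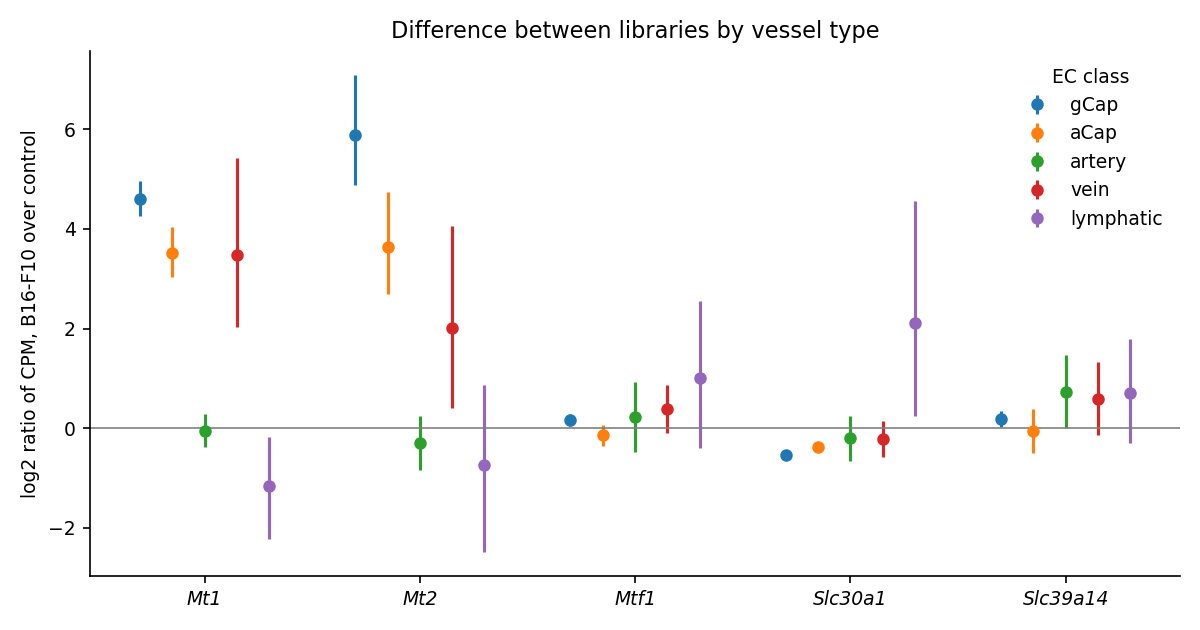
The log2 ratio of CPM, B16-F10 over control, of each member in 5 EC classes, with exact 95% intervals that cover counting error only. Mt1 and Mt2 lie above 0 in gCap-like, aCap-like and venous-like ECs (4.60, 3.52 and 3.49 for Mt1) but not in arterial-like or lymphatic-like ECs, although the estimated free RNA supply of Mt1 in B16-F10 venous-like ECs, 24.1 CPM, exceeds the level, while Slc30a1 lies below 0 in gCap-like and aCap-like ECs.

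The order of vessel types differed by gene. In the control library, Mt1 was highest in arterial-like and then lymphatic-like ECs, and aCap-like, gCap-like and venous-like ECs followed at 1.33 to 2.90 CPM without a difference between neighbours beyond counting error. In the B16-F10 library the order of Mt1 was arterial-like, gCap-like, aCap-like, lymphatic-like and venous-like. Neighbours among the last 3 did not differ beyond counting error, but the intervals of aCap-like (29.9 to 36.8 CPM) and venous-like ECs (11.0 to 19.9 CPM) did not overlap. Without the richest cell of each class, arterial-like ECs were at 35.6 CPM (26.2 to 47.3) and gCap-like ECs at 45.3 (43.2 to 47.4), so the first place rested on 1 cell. In the control library the same removal left arterial-like ECs at 71.3 CPM (58.1 to 86.6) and lymphatic-like ECs at 44.6 (27.6 to 68.2). Those 2 intervals overlapped. Slc30a1 ran from aCap-like through gCap-like, arterial-like and venous-like to lymphatic-like ECs in both libraries, at 202, 90.4, 64.8, 45.3 and 6.24 CPM in control, each step beyond counting error there. Slc39a14 had its highest levels in lymphatic-like ECs (29.1 and 47.8 CPM) and its lowest in aCap-like ECs (7.70 and 7.42 CPM). In the B16-F10 library no neighbours in the order of Mtf1 differed, with levels of 28.5 to 30.4 CPM.

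Over the 10 class sums (5 vessel types in 2 libraries) the gene most like Mt1 was Mt2, with a Pearson r of 0.98 on log2(CPM + 1), ahead of 9225 genes with a mean of at least 10 CPM, followed by Prmt7 (0.88), Wdr36 (0.86), Gm47283 (0.86) and Rbm34 (0.85). After Mt1, the genes most like Mt2 were Prmt7 (0.87), Bsg (0.86), Fblim1 (0.85) and Abcc4 (0.84). Slc30a1 was unlike both, with r of -0.33 to Mt1 and -0.40 to Mt2, and more like Mtf1, at 0.81. The gene most like Slc30a1 was Tnik, at 0.97. The sum of control lymphatic-like ECs held 3 UMIs of Slc30a1 and 7 of Mtf1. These 10 sums share libraries and cell classes, so no p is given.

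Metallothionein UMIs were spread very unevenly over cells. A UMI of Mt1 was found in 14.1% (13.1 to 15.2) of B16-F10 gCap-like ECs and in 1.29% (0.998 to 1.65) of control ones, at median depths of 8486 and 7338.5 UMIs. For Mt2 the shares were 5.14% (4.52 to 5.82) and 0.162% (0.0699 to 0.319). In clusters of T, NK and B cells, which came through the sort as another cell type, 5 of 64 B16-F10 cells held a UMI of either gene (7.81%, 2.59 to 17.3, median 7312 UMIs) and 0 of 16 control cells did. With each cell thinned to 2000 UMIs, 269 of 4544 B16-F10 gCap-like ECs, or 5.92% (5.25 to 6.65), exceeded the 95th percentile of control cells, which was 0 UMIs. In the control library 22 of 4882, or 0.451% (0.283 to 0.681), did. The thinning left out 62 control and 28 B16-F10 cells, and the unthinned shares with a UMI of either gene were 1.46% and 16.4%. Free RNA, described below, would supply 10.6 of the 46.9 CPM of Mt1 in B16-F10 gCap-like ECs. In control ones it would supply 1.36 of 1.94 CPM. Some of the cells with a UMI may thus hold it from free RNA, and their share was not estimated.

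The richest 1% of B16-F10 gCap-like ECs, 46 cells, held 42.2% of their Mt1 and Mt2 UMIs, and the richest 5% held 75.7%. At least 10 UMIs were found in 50 cells, with a maximum of 93, whereas the richest control cell had 3. Mt1 and Mt2 tended to occur in the same cells: of 235 B16-F10 gCap-like ECs with a UMI of Mt2, 56.6% also had Mt1, against 14.1% of all cells. In the control library none of 8 cells with Mt2 had Mt1. The correlation of the log levels over the B16-F10 cells was 0.46, as a description, since depth and zeros are shared by all genes of a cell.

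**Figure D3:**
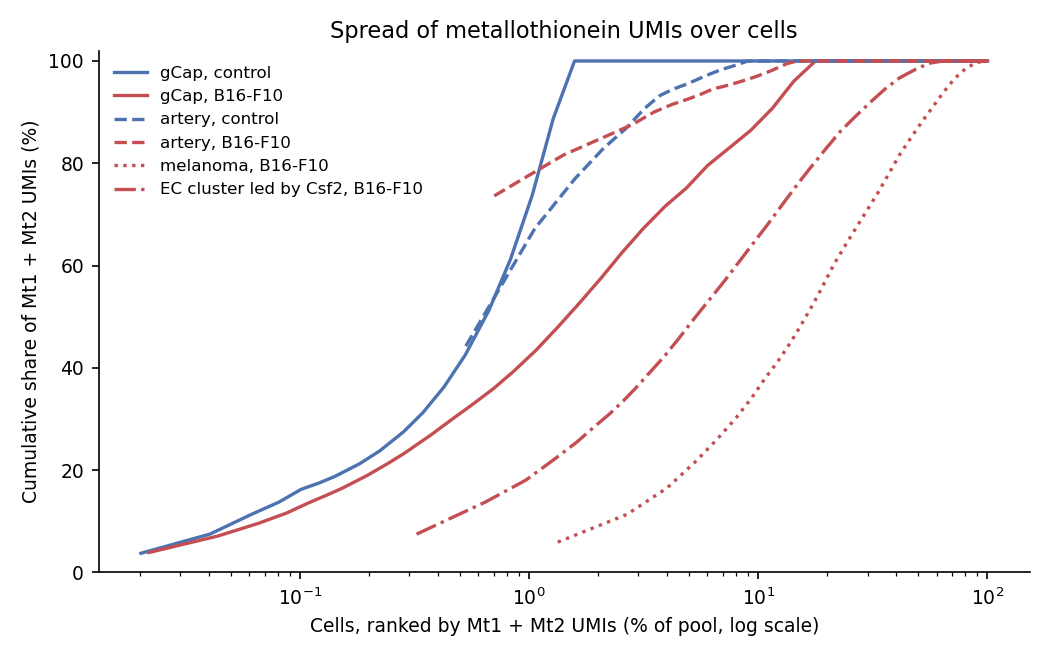
Cumulative share of Mt1 and Mt2 UMIs (%) against cells ranked from richest to poorest (% of the pool, log scale), for gCap-like and arterial-like ECs, the EC cluster led by Csf2 and melanoma cells. In B16-F10 gCap-like ECs 1% of cells hold 42.2% of the UMIs, while melanoma cells share them most evenly, the richest cell holding 5.93%, and in B16-F10 arterial-like ECs 1 cell holds 73.6%.

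The rich cells lay mainly in 1 of the 6 gCap-like clusters. It was led by Lalba, Tmem252 and Adamts9, and held 85 control and 1036 B16-F10 cells. With 22.7% of B16-F10 gCap-like ECs it had 74.5% of their Mt1 and Mt2 UMIs. Mt1 was at 142 CPM (135 to 150) and Mt2 at 39.6 (35.8 to 43.8) in its B16-F10 cells, against 10.7 CPM and no UMI in its control cells. The other 5 gCap-like clusters had Mt1 at 12.2 to 28.8 CPM in the B16-F10 library and at 1.52 to 2.28 in control. Summed over those 5 clusters, Mt1 was at 16.2 CPM (14.8 to 17.6) against 1.78, a log2 ratio of 3.18 (2.81 to 3.58), and Mt2 at 3.96 CPM (3.28 to 4.73) against 0.219, a log2 ratio of 4.17 (3.15 to 5.42).

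An EC cluster without a vessel class, led by Csf2 and Sox9, had higher levels still. It held 10 control and 310 B16-F10 cells, and in the latter Mt1 was at 387 CPM (365 to 410) and Mt2 at 192 (177 to 208). Of its B16-F10 cells 58.1% had a UMI of either gene. Slc39a14 was also high there, at 44.3 CPM (37.1 to 52.4), whereas Slc30a1, at 62.2 (53.7 to 71.6), was within the range of the gCap-like clusters, 52.7 to 69.6 CPM. A second unnamed EC cluster, with Aqp7, Fabp4 and Rbp7 among its leading genes, had Slc39a14 at 39.1 CPM in 172 control cells and 125 CPM (79.3 to 188) in 30 B16-F10 cells, and Slc30a1 at 44.2 and 114 CPM (70.7 to 175).

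**Figure D4:**
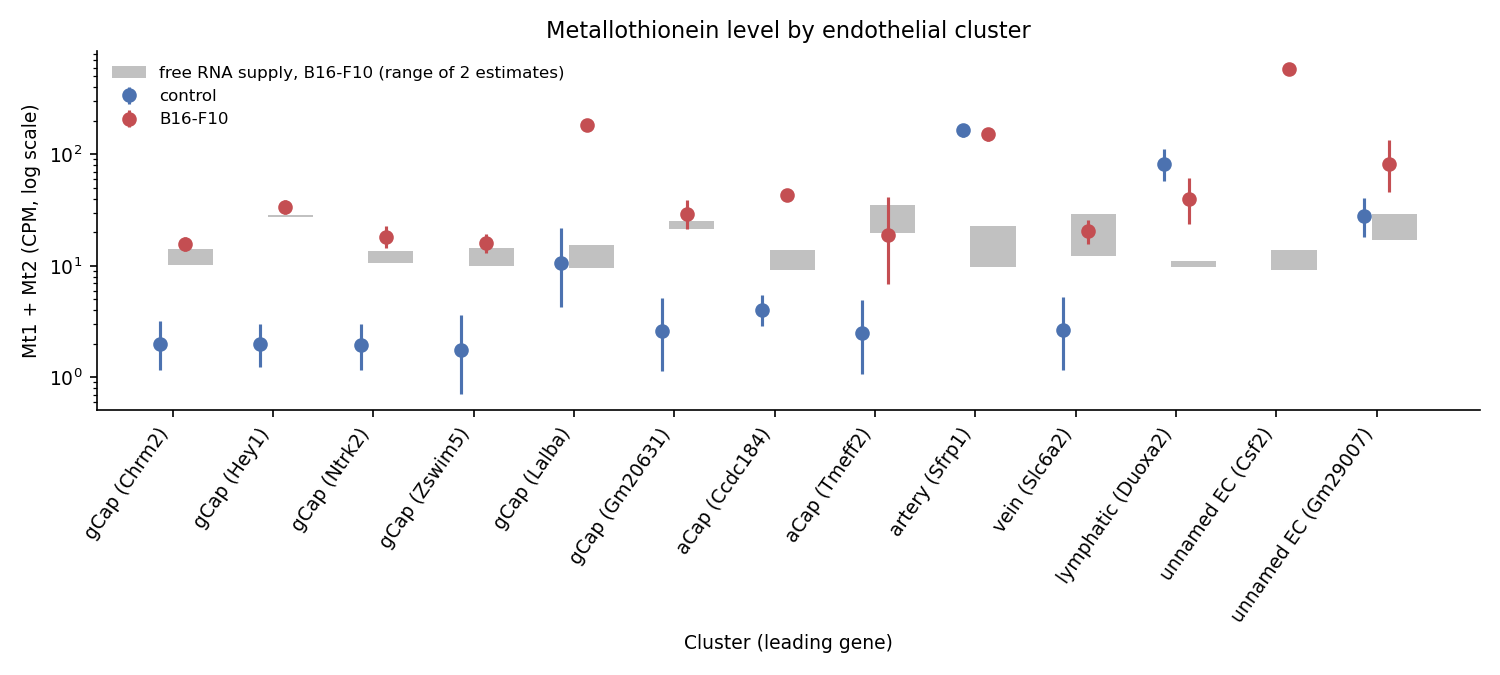
Mt1 plus Mt2 level (CPM, log scale) of each EC cluster with at least 30 B16-F10 cells, with exact 95% Poisson intervals; control points need 30 cells too, and grey boxes span 2 estimates of what free RNA supplies in the B16-F10 library. The clusters led by Lalba (182 CPM) and Csf2 (579 CPM) stand far above their boxes, while the other 5 gCap-like clusters, at 15.7 to 33.9 CPM, lie near the upper ends of theirs, and the intervals of 3 of these 5 reach into the boxes.

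Within B16-F10 gCap-like ECs the zinc transporters did not follow the metallothioneins. Slc30a1 was at 62.3 CPM (59.7 to 65.1) in 3824 cells without a metallothionein UMI, 61.3 (54.9 to 68.3) in 572 cells with 1 to 2, 57.9 (45.4 to 72.8) in 126 cells with 3 to 9 and 52.8 (35.4 to 75.9) in 50 cells with 10 or more. All 4 intervals overlapped. Mtf1 was at 28.9, 34.1, 35.7 and 27.3 CPM and Slc39a14 at 17.5, 21.1, 18.3 and 21.9 CPM in the same order, also with overlapping intervals between the first and the last. The lower Slc30a1 level was seen in each of the 6 gCap-like clusters, with log2 ratios of -0.38 to -0.68 and every interval below 0.

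The 50 rCap markers together were at 20877 CPM in cells without a metallothionein UMI and at 24220, 33088 and 35010 CPM in the cells with more. The study chose that list on its own samples, so it is not independent evidence, and 30 of its 50 genes were called higher in gCap-like ECs. Among single genes, Inhbb, an activin subunit, was at 60.6, 153, 344 and 579 CPM, Selp, the adhesion receptor P-selectin, at 5.77, 17.0, 68.3 and 115 CPM, and Myc at 8.32, 26.1, 56.4 and 122 CPM. These were chosen after their values were seen. Tsc22d3, a glucocorticoid-induced gene, went the other way, at 58.7, 50.0, 23.0 and 9.11 CPM, while Fkbp5, also glucocorticoid-induced, was at 61.2, 81.3, 127 and 146 CPM. Median depth was 8332, 9078, 9793.5 and 10717 UMIs in the same order. The cluster led by Lalba held 18.0%, 34.4%, 82.5% and 94.0% of these cells in that order. Its part in the differences between them was not tested. Pigment genes of melanoma cells (Pmel, Dct, Mlana and Tyrp1) were at 33.1 (31.2 to 35.1), 46.1 (40.6 to 52.2), 23.8 (16.1 to 34.0) and 32.8 CPM (19.4 to 51.8). The interval of cells with 1 to 2 metallothionein UMIs lay above that of cells with none. The intervals of the richer cells overlapped that of cells with none, and the part of melanoma RNA was not tested. The platelet list was at 80.2 CPM in cells with 10 or more UMIs against 29.5 in cells with none, and its part in the result was not tested.

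Melanoma cells held far more metallothionein RNA than any vessel class. In 75 B16-F10 library cells with at least 10 UMIs of Pmel and Dct, Mt1 was at 1424 CPM (1344 to 1509) and Mt2 at 236 (204 to 272). That interval of Mt2 overlapped the one of the EC cluster led by Csf2, which has no vessel class. By cell, Mt1 ranged from 0 to 68 UMIs with a median of 8, and 5 cells had none. Mt2 ranged from 0 to 28 with a median of 1, and 27 cells had none. The zinc regulators were scarce in them, with 3 UMIs of Mtf1 (3.69 CPM, 0.761 to 10.8), 2 of Slc30a1 (2.46 CPM, 0.298 to 8.89) and 8 of Slc39a14 (9.84 CPM, 4.25 to 19.4). No cell of the control library met this limit.

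Free RNA was read from near-empty barcodes of 1 to 100 UMIs, which hold RNA from broken cells. There Mt1 stood at 67.7 CPM (61.1 to 74.8) in the control and 339 (320 to 359) in the B16-F10 library, and Mt2 at 10.2 (7.77 to 13.2) and 72.8 (64.1 to 82.4). Slc30a1 was at 108 CPM (99.5 to 117) and 52.7 (45.3 to 61.0), lower as in the cells. Mtf1 was at 22.0 and 30.3 CPM and Slc39a14 at 8.99 and 12.2. Pigment genes were at 0.705 CPM in control and 850 CPM in B16-F10 near-empty barcodes.

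From genes of epithelial cells, red cells and pigment, free RNA was estimated to make up 2.01% of gCap-like UMIs in the control and 3.12% in the B16-F10 library. Pigment genes alone gave 4.06% in the latter. At these shares free RNA would supply 1.36 of the 1.94 CPM of Mt1 seen in control gCap-like ECs, or 70.4%, and 95.7% of the Mt2 level. In the B16-F10 library it would supply 10.6 CPM, or 22.6%, of Mt1 and 18.0% of Mt2. For Mtf1, Slc30a1 and Slc39a14 the supply was 1.14% to 3.18% of the level. In gCap-like ECs outside the cluster led by Lalba, Mt1 was at 16.2 CPM while free RNA would supply 11.5, or 14.2 at the pigment share. In its B16-F10 cells, by contrast, the supply was 7.82 to 12.5 CPM of 142. In venous-like ECs the supply of Mt1, 24.1 CPM, exceeded the 14.9 CPM seen, and the share of red cell RNA was 8.09% there against 1.88% from epithelial genes, so the estimate is uncertain in that class. Pigment genes gave a share of 2.99% there, which would supply 10.1 CPM of Mt1 and 2.18 CPM of Mt2, both below the levels seen.

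The share of Mt2 differed between pools. It made up 14.2% (12.4 to 16.2) of the Mt1 and Mt2 UMIs in melanoma cells, 17.7% (15.7 to 19.8) in near-empty barcodes, 21.8% (19.9 to 23.8) in the gCap-like cluster led by Lalba and 33.1% (30.9 to 35.4) in the EC cluster led by Csf2, all of the B16-F10 library. The intervals of these 2 EC clusters lay above that of melanoma cells. Those of the gCap-like clusters led by Hey1 (15.1%, 10.2 to 21.02) and Zswim5 (13.5%, 7.41 to 22.0) overlapped it, and barcodes of over 100 UMIs and under 300 genes, at 21.7% (20.4 to 23.1), overlapped the cluster led by Lalba.

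The wider zinc transporter families showed small differences in gCap-like ECs. Of 10 ZnT genes, which move zinc out of the cytosol, 6 had enough UMIs. Slc30a1 alone had its interval below 0, against 34.7% of all genes, and none had one above, against 28.7%. The other 5, Slc30a4 to Slc30a7 and Slc30a9, had ratios between -0.07 and 0.12 with intervals that held 0. Of 14 ZIP genes, which move zinc into the cytosol, 10 were measured. Of these, 5 had intervals above 0, against 28.7% of all genes, and 2 below, against 34.7%. Slc39a1, a plasma membrane importer, was at 66.1 and 88.0 CPM, a log2 ratio of 0.41 (0.34 to 0.49). Slc39a7, which releases zinc from the endoplasmic reticulum and Golgi, was at 40.0 and 51.0 CPM, a ratio of 0.35 (0.25 to 0.45). Slc39a11 (0.26) and Slc39a10 (0.13) were higher and Slc39a6 (-0.22) and Slc39a9 (-0.21) lower. Median ratios were 0.01 for the ZnT and 0.08 for the ZIP list, against -0.04 over all genes, and no gene of either list was called.

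**Figure D5:**
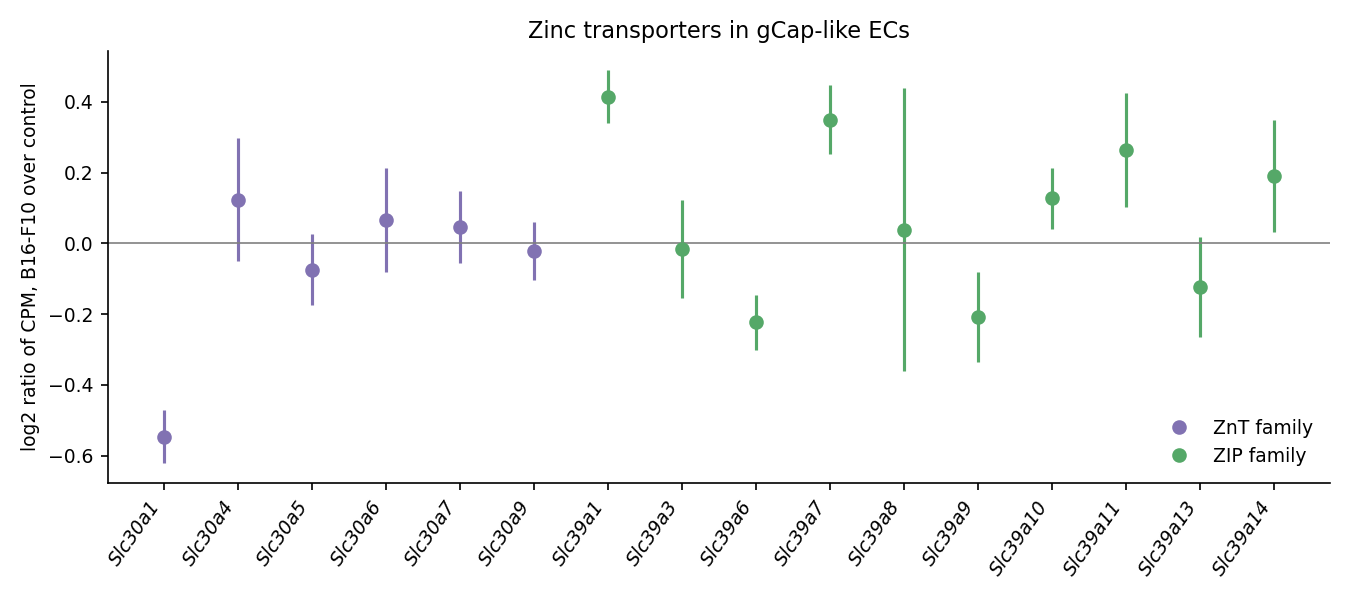
The log2 ratio of CPM, B16-F10 over control, of the 16 zinc transporter genes with at least 50 UMIs in gCap-like ECs, with exact 95% intervals that cover counting error only; purple points are the ZnT and green points the ZIP family. Slc30a1, at -0.55, has the lowest ratio and Slc39a1, at 0.41, the highest.

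In aCap-like ECs the exporter list had 4 of 6 intervals below 0, against 27.5% of all genes, and 1 above, against 27.9%. Its median was -0.31, against 0.01 over all genes, and no gene of it was called. The part played by the unlike mix of aCap-like clusters in the libraries was not tested. The importer list had 2 of 9 intervals above 0 and 1 below. Slc39a8, the zinc importer ZIP8, had too few UMIs for that list.

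Lists of genes that share known inducers with the metallothioneins were counted in gCap-like ECs, where 3.03% of all genes were called higher and 2.72% lower, with a median ratio of -0.04. Of 12 genes tied to STAT3, 8 were called higher and 0 lower, with a median ratio of 1.49, led by the feedback inhibitor Socs3 (2.93, 63.2 against 481 CPM), Bcl3 (2.70) and Junb (2.27). Of 12 glucocorticoid-responsive genes 2 were called higher, Cebpd (2.15) and Fkbp5 (1.36), followed in size by Ddit4 (0.90), and the median was 0.11. Of 13 measured genes of the oxidative stress factor NRF2, 1 was called higher, the cystine transporter Slc7a11 (2.05), ahead of Srxn1 (0.79) and Txnrd1 (0.61), with a median of 0.21. Of 10 measured hypoxia genes 1 was called higher, Ndrg1 (1.83), then Ldha (0.76) and Hif1a (0.66), with a median of 0.25. Of 16 measured copper and iron genes 0 were called, the largest ratios being those of the transferrin receptor Tfrc (0.74), ferritin light chain Ftl1 (0.71) and the copper chaperone Atox1 (0.51), with a median of 0.09. Of the genes tied to STAT3, Bcl3, Cebpd, Il4ra, Osmr and Pim3 are also on the rCap list, and Cebpd is counted among the glucocorticoid-responsive genes too. The study chose the rCap list on its own samples, and the lists here were chosen with earlier results of these data known. Nothing is read from these counts about the inducer of the metallothioneins, which was not tested.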

How the data were processed

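Mouse lung cells of 2 libraries were analysed, 1 per group. The authors deposited raw UMI counts per gene and barcode, without normalization or filter, made with Cell Ranger 7.2.0 per the file headers; the methods name an earlier version, and whether intronic reads were counted is not stated. The labels name mm10 and, for later steps, Seurat 4.4.0. The barcode lists are longer than the v2 kit of the labels allows, so the kit is uncertain. Counting intronic reads would raise long genes such as Mtf1 more than the short metallothioneins.

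Cells with 1000 to 5000 genes and under 20% mt- UMIs were kept. Scrublet (scanpy 1.11.5) removed 564 and 554 doublets, at 0.8% per 1000 cells. Genes were scaled within each library, and cells were clustered on 30 principal components and 20 neighbours with leidenalg 0.10.2 at resolution 0.8, giving 21 clusters, and a cluster took a name from markers 1.5-fold higher in it and present in 10% of its cells, needing 3 of them and 50% of the list. Clusters of mixed markers (405 and 460 cells) and unnamed non-EC clusters (302 and 788) stayed out of the EC classes.

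Members and gene lists were chosen with earlier results of these data known. Named by rule beyond the members were up to 8 zinc transporters whose interval excluded 0, up to 3 genes of each other list and the 5 genes most like Mt1 and Mt2. Inhbb, Selp, Myc, Tsc22d3, Irf8, Ch25h, Akap12, Sox11, Prickle1 and Nr3c2 were named outside this rule, as were leading genes of clusters. Ratios and intervals were run on simulated Poisson counts. These follow the model behind the intervals and hold none of the unevenness between cells, so they say nothing about that spread. Alternatives covered the cell limits, doublets, clustering, scaling, thinning and free RNA. Totals of the barcodes, 85794655 and 104978816 UMIs, set the depth.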

Additional observations from a re-analysis of the deposited data

Results flagged for a closer look

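Effects of opposite direction in 2 vessel types were seen for Mt1 and Slc30a1. The log2 ratio of Mt1 was 4.60 in gCap-like ECs and -1.16 in lymphatic-like ECs, and that of Slc30a1 was -0.55 and 2.11. The difference was not tested, since each vessel type had 1 library per group, and no member reached 50 UMIs in lymphatic-like ECs.

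Barcodes outside the cell limits also held metallothionein RNA. In barcodes with over 5000 genes, Mt1 was at 308 CPM (299 to 316) in the B16-F10 and 182 (173 to 191) in the control library. In the latter, 1 of 348 barcodes held 1366 of 1745 Mt1 and Mt2 UMIs, and without it Mt1 was at 40.6 CPM, against 288 in the B16-F10 library without its richest barcode. In barcodes with at least 300 but under 1000 genes, Mt1 was at 266 CPM (247 to 286) in the B16-F10 and 32.0 (24.3 to 41.4) in the control library.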

How the results depend on the processing

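No paired analysis was possible because there was only 1 library on either side, which also bars leaving out replicates. Of 208 alternative values, 181 stayed within the counting interval of the value reported or, for counts of list genes, within 1.5 times the count. In gCap-like ECs the sign of all 5 ratios held under all alternatives run, but the intervals of Mtf1 and Slc39a14 came to hold 0 when cells were thinned, without the cluster led by Lalba and with doublets kept (0.05, -0.12 to 0.22 for Slc39a14). That of Mtf1 also did so in cells without a UMI of other cell types, and that of Slc39a14 with response genes kept in the clustering. In arterial-like ECs the interval of Slc39a14 held 0 at resolution 1.6 (0.58, -0.13 to 1.32). The log2 ratio of Mt1 moved to 3.38 with all ECs summed, 3.33 with doublets kept and 5.99 with free RNA subtracted, and after the data were seen to 5.85 with the pigment share and 3.18 without the cluster led by Lalba. Mt2 moved to 3.52, 3.91, 10.12, 10.02 and 4.17 in the same order, and to 4.64 with cells thinned to 2000 UMIs; after subtraction almost no Mt2 was left in control, so the ratio has no fixed size. With doublets kept, the cluster led by Lalba was not named gCap-like and 3660 B16-F10 cells were, against 4572. Slc30a1 moved to -0.46 when thinned and -0.62 in cells without a UMI of other cell types, and Slc39a14 to 0.36 with all ECs summed. The thinned share of 5.92% became 7.31% over all ECs, 10.2% at the deeper thinning, 6.75% under 10% mt- UMIs and 3.53% with doublets kept. Subtraction moved Mt1 of aCap-like ECs to 4.92, turned Mt2 of venous-like ECs to -2.36 and left no Mt1 there. Leaving out the richest cell of each library, added after seeing the data, moved arterial-like Mt1 to -1.0 and Mt2 to -2.22, values that still rest on few cells. The melanoma-like cluster, which had macrophage markers too, gave 903 CPM of Mt1, 146 of Mt2 and 9.40 of Slc30a1. Slc30a1 of barcodes with 1 to 50 UMIs was -0.76, and 2 in place of 4 copper and iron genes lay below 0 under median scaling. No cluster of low UMIs lay in the classes other than gCap, so that alternative has no value there. Depth limited lymphatic-like ECs and Mt2 in control cells.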

Other observations

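Clusters that carried markers of ECs together with those of another cell type, kept out of the classes, also had more Mt1 in the B16-F10 library. In the cluster with epithelial markers (91 control and 139 B16-F10 cells) Mt1 was at 50.7 and 548 CPM (509 to 589), in that with platelet markers (230 and 236 cells) at 3.54 and 55.4 CPM (44.6 to 68.1), and in that with mural markers (84 and 85 cells) at 6.29 and 111 CPM (89.7 to 136). A low-UMI cluster led by Cenpb (294 and 750 cells, 2729 UMIs per B16-F10 cell at the median) had 18.6 and 120 CPM (106 to 135). Free RNA would supply 171 CPM of the B16-F10 level by all marker genes, among which this cluster's own red cell markers count, and 28.9 CPM by pigment genes.

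Among B16-F10 gCap-like ECs, cells with at least 3 metallothionein UMIs had higher levels than cells with none of Irf8 (50.9 against 4.34 CPM), Ch25h (44.2 against 4.47) and Akap12 (2711 against 462), and lower levels of Sox11 (28.2 against 131), Prickle1 (43.1 against 193) and Nr3c2 (11.1 against 56.7). These genes were picked for their size after the values were seen, in cells split by a measured count, and they carry no test. The cluster led by Lalba held 82.5% of cells with 3 to 9 UMIs and 94.0% of those with 10 or more. It held 18.0% of cells with none, and its part in these differences was not tested.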
